A study of Mus musculus with 6 samples.

Results

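The genes described here are the 51 members of the BMP and TGF-beta superfamily pathway among the 54418 genes of a count table from mouse organoids. They were named by symbol from a list of ligands, secreted antagonists and carriers, receptors, SMADs, corepressors and targets, and all 51 matched a single Ensembl gene. The list is not a product of the expression values, but it was drawn up with earlier results of these data known. The organoids, self-organising epithelial cultures that the labels call AKP, fell into 2 groups of 3 libraries: Control, and GATA6KO, in which the title and genotype label name loss of the zinc-finger transcription factor GATA6. Both groups share the AKP background, whose alleles the labels do not spell out. How the knockout was made, and whether a group is a single clone or several cultures, is not given in the sources used here, so the spread between libraries may be technical.

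Ligands of this superfamily are secreted dimers. A dimer joins type II receptors to type I receptors, and the type I receptor phosphorylates a receptor SMAD, which enters the nucleus with SMAD4. In the BMP branch the ligands act through BMPR1A, BMPR1B and ACVR1 on SMAD1, SMAD5 and SMAD9, and the ID genes are the usual targets. In the TGF-beta and activin branch they act through TGFBR1 and ACVR1B on SMAD2 and SMAD3. In the gut, BMP signalling is known to be low at the crypt base, where stromal cells secrete antagonists such as GREM1 and noggin, and higher towards the differentiated surface, while TGF-beta restrains epithelial growth. Colorectal tumours often lose SMAD4 or a TGF-beta receptor.

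Library totals ran from 22973245 to 31328415 estimated counts. Levels are given as CPM, that is counts per 1000000 after TMM scaling, and a spread is the SD over 3 libraries. The targeted gene, Gata6, measured 25.3, 23.2 and 28.0 CPM in Control replicates 1 to 3 and 14.3, 16.0 and 8.24 CPM in GATA6KO replicates 1 to 3, without overlap (log2 fold change -0.99, SE 0.25, edgeR adjusted p = 0.0486, and 0.149, 0.128 and 0.181 without Control replicates 1, 2 and 3). Transcript remained in every knockout library, and since the lesion is not given, these counts cannot check the genotype. The labelled epithelium was borne out by its markers, with 8 epithelial genes summing to 9940 to 10800 CPM in Control and 6840 to 7930 CPM in GATA6KO, and Cdh1, Krt8, Krt18 and Cldn7 among those called lower. The part of this in the results below was not tested. Fibroblast and other stromal markers (8 genes) summed to 0.467 to 0.659 CPM and 0.426 to 0.7 CPM, with Lum at 0 in every library. The 6 immune markers stayed at or below 0.689 CPM in sum and the 4 endothelial markers at or below 0.667 CPM. GATA6KO replicate 2 stood apart on chromosome 14, where the median of 355 expressed genes lay at -0.9 on the log2 scale relative to Control, while replicates 1 and 3 lay at -0.09 and 0.04. Bmp4, Bmp1 and Bmpr1a lie on that chromosome.

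Of the 51 members, 41 were expressed enough to test. Genes called were those with an adjusted p under 0.05 by edgeR's quasi-likelihood test, adjusted over all 14714 genes tested. The ligand Bmp4, the activin antagonist Fst, the pseudoreceptor Bambi, the receptor Tgfbr1, the transducer Smad2 and the BMP targets Id4 and Atoh8 rose, and the ligand Bmp8b fell. These were 7 members higher (17.1% of those tested, against 6.92% of all genes tested) and 1 lower (2.44%, against 5.47%). The median log2 fold change over the 41 was 0.14, beside 0.02 over all genes tested. The groups did not overlap for 17 of the 41 members, a share close to the 40.8% of all genes tested. With 3 libraries against 3, an exact permutation test of a single gene cannot give a 2-sided p below 0.1, which each of the 8 called members reached. Called members depended on the Control libraries: 1 member was called higher without Control replicate 1, 2 or 3, where all genes called higher numbered 256, 230 and 202, from 1018 with every library. Without GATA6KO replicates 1, 2 and 3, all genes called numbered 2235, 1299 and 1086 higher and 2125, 1045 and 748 lower, from 1018 and 805. Passes without GATA6KO replicate 1 given below thus came with more calls over all genes. Bambi and Bmp8b were called without each library in turn. They were the only members called without a Control library. Members below that passed only without a GATA6KO library thus did not pass without any Control library.

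**Figure D1:**
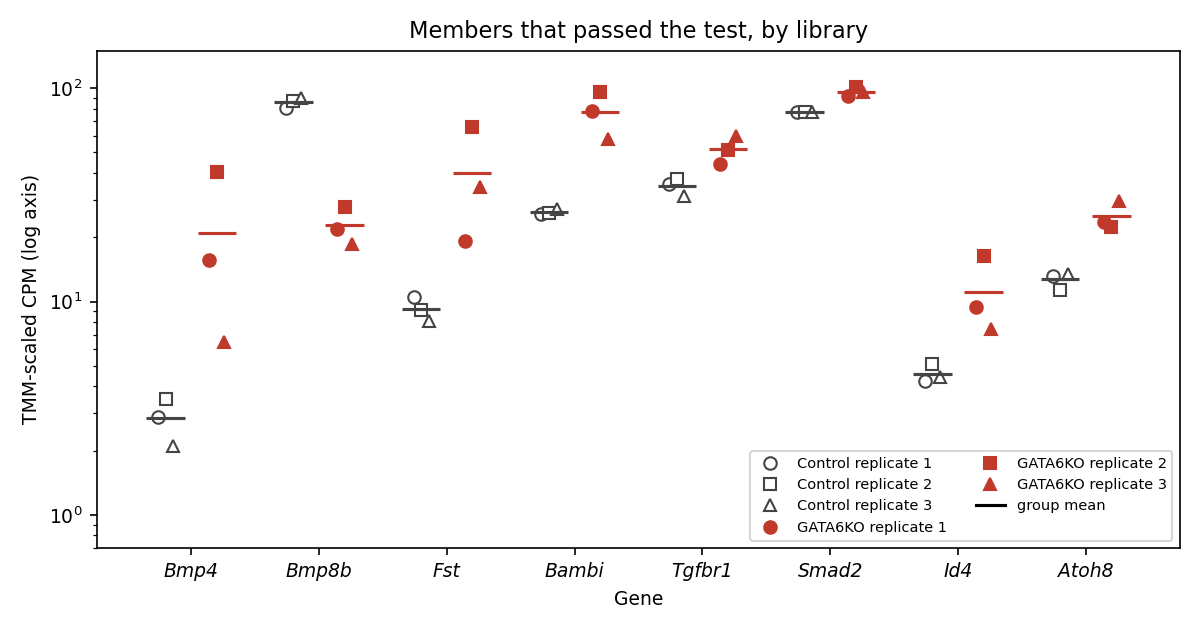
TMM-scaled CPM (log axis) of the 8 members that passed the test, for 3 Control libraries (open) and 3 GATA6KO libraries (filled), with group means as lines. Bmp8b is the gene whose GATA6KO libraries all lie below Control (18.6 to 27.9 against 80.7 to 89.8 CPM), and Bmp4, Fst and Id4 are highest in GATA6KO replicate 2.

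Among the BMP ligands, Bmp8b fell and Bmp4 rose. Bmp8b, a ligand best known from germ cells and brown fat, measured 80.7, 87.6 and 89.8 CPM in Control replicates 1 to 3 and 22.0, 27.9 and 18.6 CPM in GATA6KO replicates 1 to 3. All knockout libraries lay far below all Control libraries. The fall was 3.77-fold (log2 fold change -1.91, SE 0.16, edgeR adjusted p = 0.00194), and the adjusted p was at most 0.0187 when any library was left out. Bmp8b (ENSMUSG00000002384) lies on chromosome 4 at 123105165 to 123132099 of mm10. Its neighbour and close relative Bmp8a shares 104 stretches of 31 bases with it, 5.15% of those in Bmp8b. Bmp8a, at 0.548 ± 0.112 CPM in Control against 0.898 ± 0.303 in the knockout (SD, n = 3 each), was not called (edgeR adjusted p = 0.246).

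Bmp4, a ligand made in the gut mainly by the mesenchyme, moved the other way. It measured 2.89, 3.5 and 2.1 CPM in Control replicates 1 to 3 and 15.7, 40.7 and 6.44 CPM in GATA6KO replicates 1 to 3. The groups did not overlap, but the knockout libraries spread widely, and the highest was the library in which chromosome 14 was low. The means differed 7.41-fold (log2 fold change 2.89, SE 0.66, edgeR adjusted p = 0.0372). It was not called without Control replicate 1, 2 or 3 (adjusted p = 0.135, 0.122 and 0.163), and without GATA6KO replicate 2 the log2 fold change was 1.97 (adjusted p = 0.031). Bmp4 (ENSMUSG00000021835) lies at 46383520 to 46390669 of chromosome 14. Since these are bulk samples, more cells that make a transcript and more transcript per cell cannot be told apart.

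The promoter sequences of these 2 ligands are shown because they moved in opposite directions. Each is the 250 bases before the RefSeq start (GRCm38.p6), read along the gene's strand. Bmp4 is chr14:46390670-46390919 on the minus strand and Bmp8b is chr4:123104911-123105160 on the plus strand. Capitals would mark a GATA motif (the word GATA with A or T before it and A or G after it, on either strand) or GGCGCC, a GC-rich motif of the BMP SMADs that reads alike on both strands. Neither window holds any.
Bmp4: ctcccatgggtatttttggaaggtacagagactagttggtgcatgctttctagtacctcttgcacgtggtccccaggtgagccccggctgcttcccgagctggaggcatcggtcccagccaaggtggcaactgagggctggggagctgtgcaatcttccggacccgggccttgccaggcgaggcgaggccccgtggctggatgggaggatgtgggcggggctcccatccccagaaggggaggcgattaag
Bmp8b: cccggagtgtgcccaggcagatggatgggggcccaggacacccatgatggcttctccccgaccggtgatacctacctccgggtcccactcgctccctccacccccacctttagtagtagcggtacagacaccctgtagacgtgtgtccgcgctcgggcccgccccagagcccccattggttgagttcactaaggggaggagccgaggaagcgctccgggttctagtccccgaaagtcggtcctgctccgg
Windows were read for 37 members (49 windows), and 4 held a GATA motif (8.16%, against 26.5% of 32841 mouse windows of that length). The called members Fst, Bambi and Smad2 had no window in this set, so the shares do not cover all 51 members. GGCGCC stood in 12 of the 49 (24.5%, against 9.59%). The member windows were richer in G and C, at a median of 64.4% against 52.4%, and its part in these shares was not tested. A motif match is a description of letters and not a binding site.

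Per kilobase of exon, the scale on which different genes can be compared, Bmp8b was the most abundant BMP ligand in Control, at 22.2 CPM per kilobase, followed by Bmp2 at 8.69, Bmp4 at 1.26 and Bmp7 at 0.687. That order held in each Control library. Bmp8b made up 66.6% ± 1.38 (SD, n = 3) of the summed level of the 8 BMP ligands in Control and 17.4% ± 5.83 in GATA6KO. Bmp4 made up 3.79% ± 0.952 and 22.0% ± 9.56. The sum itself was 33.3 ± 1.17 CPM per kilobase in Control and 37.5 ± 17.7 in GATA6KO, with values of 37.1, 55.4 and 20.0 in GATA6KO replicates 1 to 3 that lay on either side of Control. In the knockout the largest share belonged to Bmp2, at 49.5%, 50% and 40.7% in replicates 1 to 3.

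**Figure D2:**
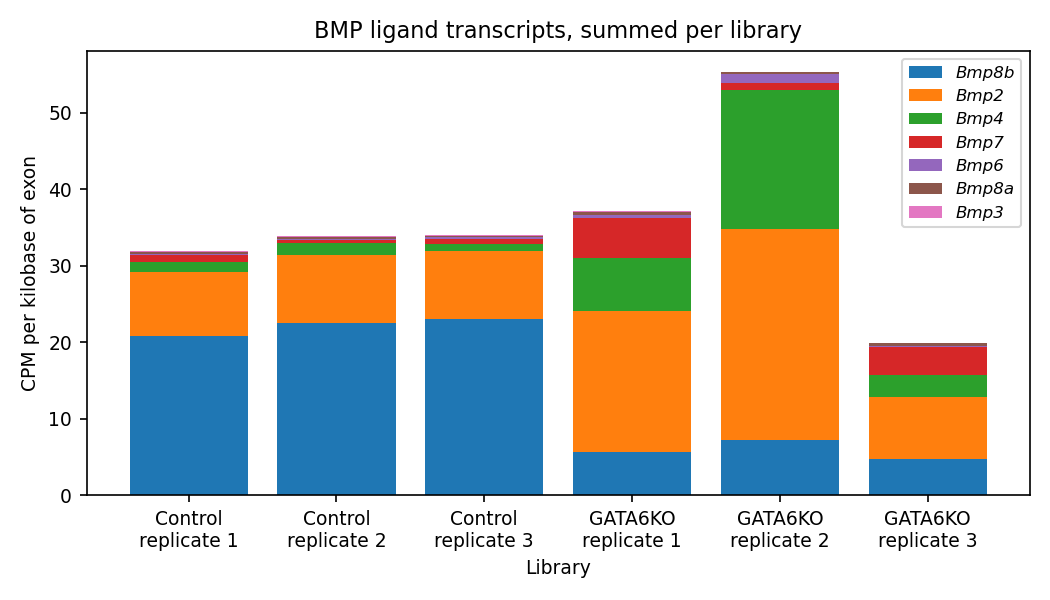
Summed transcript level of the BMP ligands in each library, in CPM per kilobase of exon, with the part of each ligand as a coloured segment (Bmp5 is at 0). Bmp8b fills 65.1% to 67.9% of the Control bars and 13% to 24% of the GATA6KO bars, whose heights run from 20.0 to 55.4.

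Bmp2, a ligand of the differentiated epithelium, measured 29.8, 31.2 and 31.6 CPM in Control and 65.3, 98.4 and 28.9 CPM in GATA6KO replicates 1 to 3. GATA6KO replicate 3 lay below Control and the others above it, and Bmp2 was not called (log2 fold change 1.06, SE 0.39, edgeR adjusted p = 0.124), although it was without GATA6KO replicate 3 (adjusted p = 0.011). Bmp7, a ligand that forms dimers with other BMPs, measured 3.94, 1.84 and 2.5 CPM in Control and 20.6, 3.9 and 14.6 CPM in GATA6KO. There GATA6KO replicate 2 was the low library and fell within Control. The log2 fold change was 2.24 (SE 0.61, adjusted p = 0.0599), and without GATA6KO replicate 2 it was 2.68 (adjusted p = 0.00738). Without a Control library the lowest adjusted p was 0.274 for Bmp2 and 0.13 for Bmp7. Bmp6, a ligand also known for iron sensing, measured at most 0.8 CPM in Control and 1.64, 4.46 and 0.434 CPM in GATA6KO (adjusted p = 0.175, and 0.0458 without GATA6KO replicate 3). Its exons share 224 bases with those of Txndc5 on the opposite strand, which had at least 6833 counts in every library. Bmp3, an unusual member that opposes other BMPs, was below 1 CPM throughout (0.722 ± 0.137 and 0.232 ± 0.112 CPM, SD, n = 3 each; edgeR adjusted p = 0.0523, and 0.0242 without GATA6KO replicate 2). Bmp5 had no count in any library, which allows up to 0.131 CPM in the shallowest library (3 counts, for counting error alone).

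No TGF-beta or activin ligand was called. Inhba, the subunit of activin A, had the largest log2 fold change of all members (4.06, SE 1.08, edgeR adjusted p = 0.0553). It measured 0.789, 1.35 and 1.17 CPM in Control and 4.48, 47.2 and 4.14 CPM in GATA6KO replicates 1 to 3. All knockout libraries exceeded all Control libraries, and GATA6KO replicate 2 was 42.8 times the Control mean where replicates 1 and 3 were 4.06 and 3.75 times it. Without that library the log2 fold change was 1.95 and passed the test (adjusted p = 0.0109), and it also passed without GATA6KO replicate 1 or 3 (adjusted p = 0.028 and 0.042). It did not pass without Control replicate 1, 2 or 3 (adjusted p = 0.181, 0.173 and 0.201). Tgfb1, the main TGF-beta of epithelium and immune cells, was the ligand of this branch with the highest level in Control, at 5.27 CPM per kilobase. It measured 26.0, 27.6 and 26.2 CPM in Control and 30.9, 14.5 and 14.6 CPM in GATA6KO, with replicate 1 above Control and replicates 2 and 3 below (adjusted p = 0.388, and 0.00419 without GATA6KO replicate 1). Tgfb3 measured 0.131, 0.139 and 0.467 CPM in Control and 3.18, 1.25 and 0.434 CPM in GATA6KO (adjusted p = 0.0868, and 0.0462 without GATA6KO replicate 3). Tgfb2 and Inhbb, with at most 6 and 10 counts in a library, and Inha, with none, were not tested.

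Among the secreted antagonists and carriers, Fst rose. Follistatin, its product, binds activins and some BMPs and keeps them from their receptors. It measured 10.5, 9.12 and 8.14 CPM in Control and 19.2, 65.9 and 34.6 CPM in GATA6KO replicates 1 to 3. Every knockout library lay above Control, with replicate 2 the highest, as for Inhba. The rise was 4.32-fold (log2 fold change 2.11, SE 0.43, edgeR adjusted p = 0.0266), with adjusted p = 0.0993, 0.115 and 0.134 without Control replicates 1, 2 and 3. Its relative Fstl3 measured 5.13 ± 1.36 and 3.2 ± 3.05 CPM (SD, n = 3 each; edgeR adjusted p = 0.501), with GATA6KO replicate 1 above Control and replicates 2 and 3 below (adjusted p = 0.012 without replicate 1).

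Chrd encodes chordin, which binds BMPs outside the cell. It measured 4.12, 3.26 and 4.0 CPM in Control and 0.869, 1.54 and 2.17 CPM in GATA6KO, groups that did not overlap (log2 fold change -1.31, SE 0.36, adjusted p = 0.062). It passed without GATA6KO replicate 1 or 3 (adjusted p = 0.0386 and 0.0377). Ltbp3, a carrier that tethers latent TGF-beta to the matrix, measured 8.32, 8.46 and 14 CPM in Control and 2.71, 1.57 and 0.2 CPM in GATA6KO. No libraries overlapped, and the knockout ranged over 81, 48 and 6 counts (log2 fold change -2.78, SE 0.76, adjusted p = 0.0596, and 0.0302 and 0.0241 without GATA6KO replicates 1 and 3). Without a Control library the lowest adjusted p was 0.161 for Chrd and 0.146 for Ltbp3. Ltbp4 and the astacin protease Bmp1, which cleaves chordin and procollagen and is no BMP despite its name, were not called (adjusted p = 0.599 and 0.359). Grem1 had no count, and Nog, Fstl1 and Ltbp1 had at most 11, 17 and 12 counts in a library. Grem1 and noggin are antagonists of the crypt stroma, and the stromal markers were near 0 in these cultures. The part of this in their levels was not tested.

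**Figure D3:**
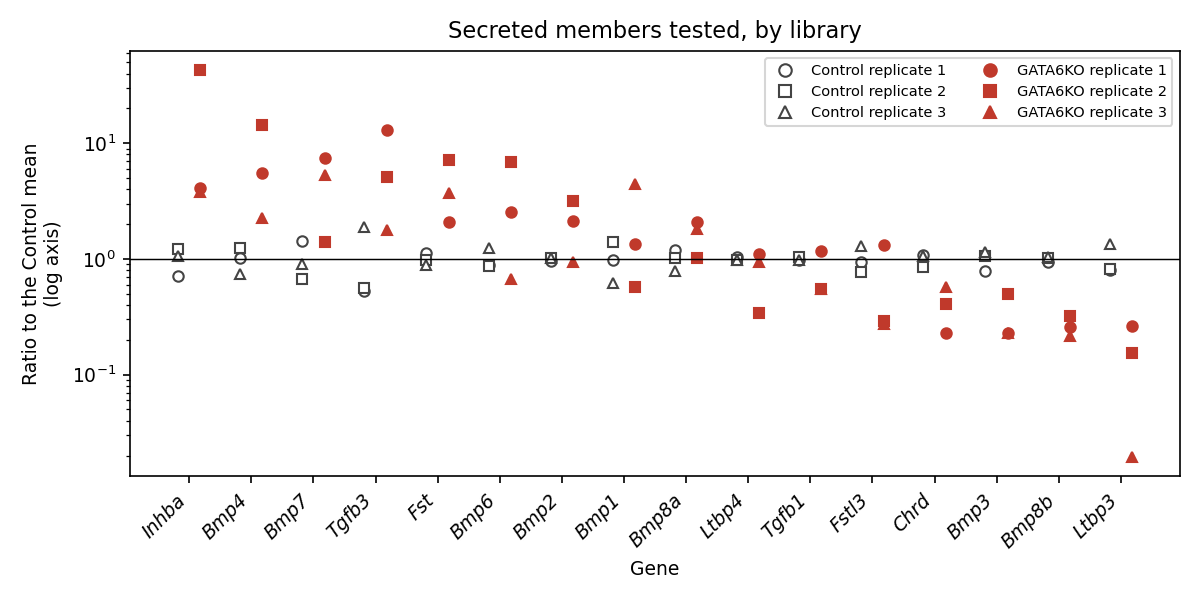
Level of each secreted member tested, as a ratio to its Control mean (log axis), for 3 Control libraries (open) and 3 GATA6KO libraries (filled). The GATA6KO libraries of Inhba (4.06, 42.8 and 3.75) and Ltbp3 (0.264, 0.153 and 0.0195) lie far apart, each gene on 1 side of its Control libraries.

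Most signalling receptors were close to their Control level. Of 9 receptor genes tested, Bambi and Tgfbr1 rose, and the other 7 had log2 fold changes from -0.27 to 0.15. Bambi, a pseudoreceptor without a kinase that dampens both branches and is itself induced by BMP and Wnt signals, measured 25.7, 25.9 and 27.3 CPM in Control and 78.1, 96.5 and 57.9 CPM in GATA6KO replicates 1 to 3. The lowest knockout library was more than the highest Control library by a wide margin. The rise was 2.95-fold (log2 fold change 1.56, SE 0.19, edgeR adjusted p = 0.00509), with an adjusted p of at most 0.0408 when any library was left out. Bambi (ENSMUSG00000024232) lies on chromosome 18 at 3507923 to 3516404.

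Tgfbr1, the type I receptor for TGF-beta, rose 1.49-fold. It measured 35.5, 37.4 and 31.3 CPM in Control and 44.1, 51.2 and 59.9 CPM in GATA6KO, without overlap (log2 fold change 0.57, SE 0.14, edgeR adjusted p = 0.0431). Its adjusted p was 0.144, 0.135 and 0.198 without Control replicates 1, 2 and 3, and 0.0593 and 0.0689 without GATA6KO replicates 2 and 3. Its partner Tgfbr2, the type II receptor, measured 147, 144 and 157 CPM in Control and 147, 216 and 134 CPM in GATA6KO, with replicate 2 above the Control range and replicate 3 below it (log2 fold change 0.15, SE 0.18, adjusted p = 0.62). Transcript of both TGF-beta receptors was thus present in all libraries.

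On the scale per kilobase, the type I receptors of Control ranked Bmpr1a (21.3 ± 1.06, SD, n = 3), Acvr1b (14.9 ± 1.05), Acvr1 (5.61 ± 0.169) and Tgfbr1 (5.32 ± 0.474). The first 2 ranks were separated by more than the spread, while Acvr1 and Tgfbr1 differed by less than it. This spread, here and for the type II receptors below, is between libraries. It holds no error of the exon length, which counts all annotated exons, so the ranks between genes are descriptions. In GATA6KO Tgfbr1 stood at 7.92 ± 1.21 and Acvr1 at 4.65 ± 1.08. Bmpr1a, the main BMP type I receptor of the gut, measured 129, 136 and 142 CPM in Control and 131, 63.6 and 153 CPM in GATA6KO. The low library was replicate 2, in which chromosome 14 was low, and without it the log2 fold change went from -0.23 to 0.07. Among type II receptors Tgfbr2 led in Control (18.3 ± 0.836 CPM per kilobase), followed by Acvr2a (6.32 ± 0.0778), Bmpr2 (4.11 ± 0.0285) and Acvr2b (1.75 ± 0.147), each apart from the next by more than the SD. Acvr2a, shared by activins and BMPs, measured 35.4, 36.0 and 36.3 CPM in Control and 27.8, 32.5 and 30.9 CPM in GATA6KO, a shift of -0.24 on the log2 scale that did not pass (SE 0.1, edgeR adjusted p = 0.151). Bmpr2, the BMP type II receptor, measured 74.4, 73.9 and 73.3 CPM in Control and 90.3, 84.7 and 69.6 CPM in the knockout. Acvr1, a type I receptor of BMPs, measured 26.4, 26.9 and 28.0 CPM, then 22.7, 27.5 and 17.1 CPM. In both genes the knockout libraries lay on either side of a Control value. Acvr1b, the activin type I receptor, measured 66.9, 60.6 and 69.7 CPM in Control against 77.7, 54.4 and 56.7 CPM. Acvr2b, a type II receptor of activins and BMPs, measured 7.23, 7.18 and 6.2 CPM against 5.82, 5.9 and 6.1 CPM, so that its groups barely parted. None of these 4 was called (adjusted p = 0.425, 0.335, 0.811 and 0.428). Bmpr1b had 1 count in all libraries together and the coreceptor Tgfbr3 at most 26 in a library.

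**Figure D4:**
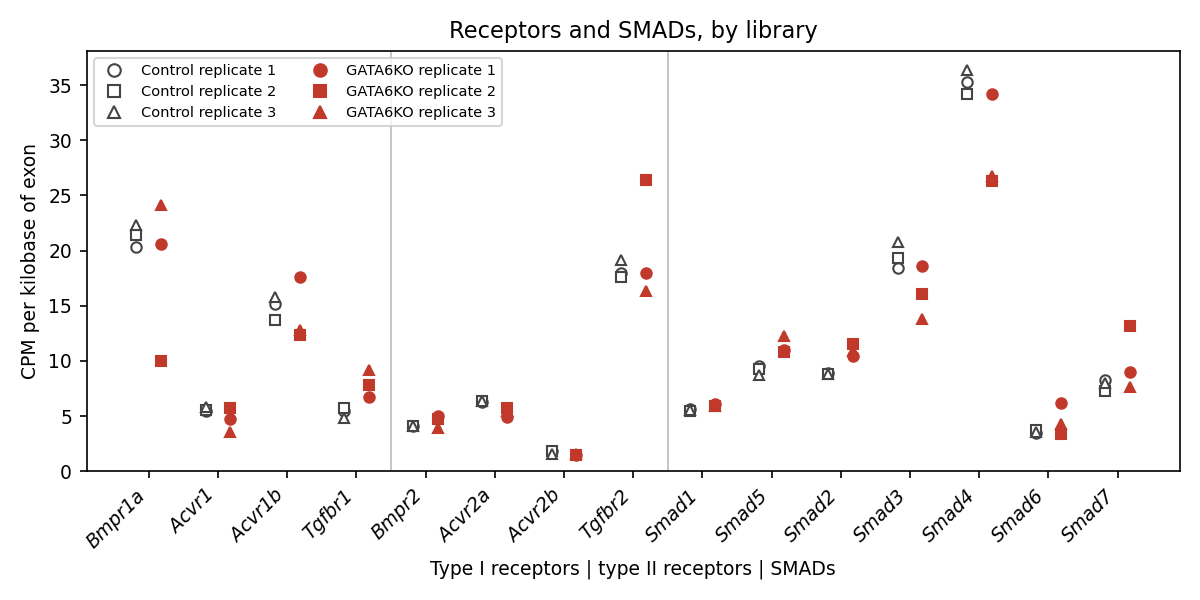
Transcript level of type I receptors, type II receptors and 7 SMADs (all but Smad9) in CPM per kilobase of exon, for 3 Control libraries (open) and 3 GATA6KO libraries (filled). Smad4, Bmpr1a, Smad3 and Tgfbr2 have the highest Control levels (35.3, 21.3, 19.5 and 18.3), and GATA6KO replicate 2 is the low point of Bmpr1a and the high point of Tgfbr2.

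All 8 SMAD genes were tested and 1 rose. Smad2, a transducer of TGF-beta and activin, measured 77.8, 77.6 and 77.5 CPM in Control and 92.0, 101 and 95.8 CPM in GATA6KO replicates 1 to 3, a small but even shift (log2 fold change 0.31, SE 0.08, edgeR adjusted p = 0.0492). It stood at the threshold: the adjusted p was 0.173, 0.222 and 0.223 without Control replicates 1, 2 and 3, and 0.0619 and 0.0597 without GATA6KO replicates 2 and 3. Smad3, the other transducer of that branch, measured 102, 107 and 115 CPM in Control and 103, 88.9 and 76.4 CPM in GATA6KO (log2 fold change -0.27, SE 0.12, adjusted p = 0.188, and 0.0374 without GATA6KO replicate 1). Per kilobase Smad3 exceeded Smad2 in Control (19.5 ± 1.14 against 8.84 ± 0.0181) and in GATA6KO (16.1 ± 2.39 against 11.0 ± 0.524, SD, n = 3 each).

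Of the BMP transducers, Smad5 measured 70.7, 68.5 and 64.9 CPM in Control and 81.8, 79.9 and 90.9 CPM in GATA6KO, without overlap, and had the same log2 fold change as Smad2 (0.31, SE 0.09, adjusted p = 0.0699, and 0.0414 without GATA6KO replicate 1). Smad1 measured 34.7 ± 0.747 and 37.2 ± 0.606 CPM (SD, n = 3 each; edgeR adjusted p = 0.453) and Smad9 was below 1.5 CPM in every library (adjusted p = 0.262). Smad4, the partner of both branches, measured 131, 127 and 135 CPM in Control and 127, 97.6 and 99.4 CPM in GATA6KO (log2 fold change -0.28, SE 0.12, adjusted p = 0.172, and 0.0119 without GATA6KO replicate 1). The inhibitory SMADs, which are induced by the pathway and shut it off, were not called. Smad6, which acts on BMP signals, measured 11.5 ± 0.518 and 14.8 ± 4.65 CPM (edgeR adjusted p = 0.325), and Smad7, which acts on both, 35.4 ± 2.38 and 44.9 ± 13 CPM (edgeR adjusted p = 0.292), with GATA6KO replicate 2 the highest at 59.5 CPM. The corepressors Ski, Skil and Tgif1, which hold back SMAD target genes, had log2 fold changes of 0.02, -0.09 and -0.17 and SEs of 0.08 to 0.09 (adjusted p = 0.913, 0.47 and 0.231). Skil, itself a target of TGF-beta, measured 101 to 104 CPM in Control and 91.6 to 102 CPM in GATA6KO.

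Of the 5 targets, Atoh8 and Id4 rose and Id1, Id2 and Id3 were not called. Atoh8, a helix-loop-helix factor induced by BMP signals in several tissues, measured 13.2, 11.3 and 13.4 CPM in Control and 23.7, 22.4 and 29.5 CPM in GATA6KO replicates 1 to 3. The knockout libraries lay close together and above Control (log2 fold change 0.99, SE 0.15, edgeR adjusted p = 0.0109), with adjusted p = 0.0618, 0.074 and 0.0673 without Control replicates 1, 2 and 3. Id4 measured 4.25, 5.1 and 4.44 CPM in Control and 9.46, 16.3 and 7.47 CPM in GATA6KO (log2 fold change 1.27, SE 0.31, edgeR adjusted p = 0.0441), with adjusted p = 0.157, 0.141 and 0.181 without the same libraries.

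The abundant ID genes, which block helix-loop-helix factors and serve as readouts of BMP receptor activity, had log2 fold changes of 0.08 to 0.31. Id1 measured 202, 204 and 203 CPM in Control and 178, 209 and 254 CPM in GATA6KO (log2 fold change 0.08, SE 0.14, adjusted p = 0.73). Id3 measured 161, 155 and 148 CPM in Control and 184, 132 and 194 CPM in GATA6KO (log2 fold change 0.14, SE 0.15, adjusted p = 0.574). Id2 measured 197, 201 and 218 CPM in Control and 226, 207 and 333 CPM in GATA6KO (log2 fold change 0.31, SE 0.18, adjusted p = 0.289). For all 3 the knockout libraries straddled or touched the Control range. Id4 was a minor part of the family: per kilobase it made up 0.344% ± 0.0336 of the 4 ID genes in Control and 0.783% ± 0.415 in GATA6KO (SD, n = 3), against 50.4% ± 0.35 and 47.8% ± 4.5 for Id1.

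The promoters of the 2 targets that rose are given in the same way as those of the ligands. Atoh8 is chr6:72235578-72235827 on the minus strand and Id4 is chr13:48260866-48261115 on the plus strand. The capitals in Id4 mark GGCGCC, which begins 148 bases before the RefSeq start, and Atoh8 holds no motif of either kind in this window. In the GENCODE annotation used for gene positions, Id4 starts farther downstream, at 48261228.
Atoh8: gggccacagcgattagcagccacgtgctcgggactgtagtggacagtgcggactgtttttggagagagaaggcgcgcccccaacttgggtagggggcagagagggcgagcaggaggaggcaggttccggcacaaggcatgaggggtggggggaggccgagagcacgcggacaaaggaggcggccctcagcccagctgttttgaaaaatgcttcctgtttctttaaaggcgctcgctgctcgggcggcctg
Id4: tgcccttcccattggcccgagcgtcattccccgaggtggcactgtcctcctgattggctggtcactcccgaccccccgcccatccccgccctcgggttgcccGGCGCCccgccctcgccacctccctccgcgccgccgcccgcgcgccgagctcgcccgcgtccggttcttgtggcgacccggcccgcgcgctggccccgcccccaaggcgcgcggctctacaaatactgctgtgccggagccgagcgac
GGCGCC was also found in the window of Id2, which was not called, and not in that of Id3.

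Of 20 BMP branch members tested, 3 rose and 1 fell (15% and 5%, against 6.92% and 5.47% of all genes tested), with a median log2 fold change of 0.31 and 15 above 0. Of 14 TGF-beta and activin members tested, 3 rose (21.4%) and none fell, with a median of -0.08 and 6 above 0. The sign of that median turned with DESeq2 (0.22, beside 0.30 for the BMP branch), without a filter (0.25, beside 0.33), and without Control replicate 1, Control replicate 3 or GATA6KO replicate 3 (0.05, 0.07 and 0.01). Without any 1 Control library no member of the TGF-beta and activin branch was called, and in the BMP branch the fall of Bmp8b was the sole call. The other 7 tested act in both branches, and of these Bambi rose. In the BMP branch the called members were ligands and targets (Bmp4, Bmp8b, Id4, Atoh8), and in the TGF-beta and activin branch an antagonist, a receptor and a SMAD (Fst, Tgfbr1, Smad2). Members that failed the filter on low counts are not in these medians, and whether the branches differ was not tested. By role, the spread was in the secreted members: the median size of the log2 fold change was 1.69 over 16 ligands, antagonists and carriers, and 0.26 over 20 receptors, SMADs and corepressors, beside 0.3 over all genes tested. The median SD between GATA6KO libraries (log2 of CPM plus 0.1) was 1.08 for the former and 0.21 for the latter, and 0.28 over all genes. In Control these were 0.26, 0.06 and 0.09. The secreted members also had lower levels, with a median Control mean of 3.31 CPM against 65.5 CPM, and the part of level in the spread was not tested.

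**Figure D5:**
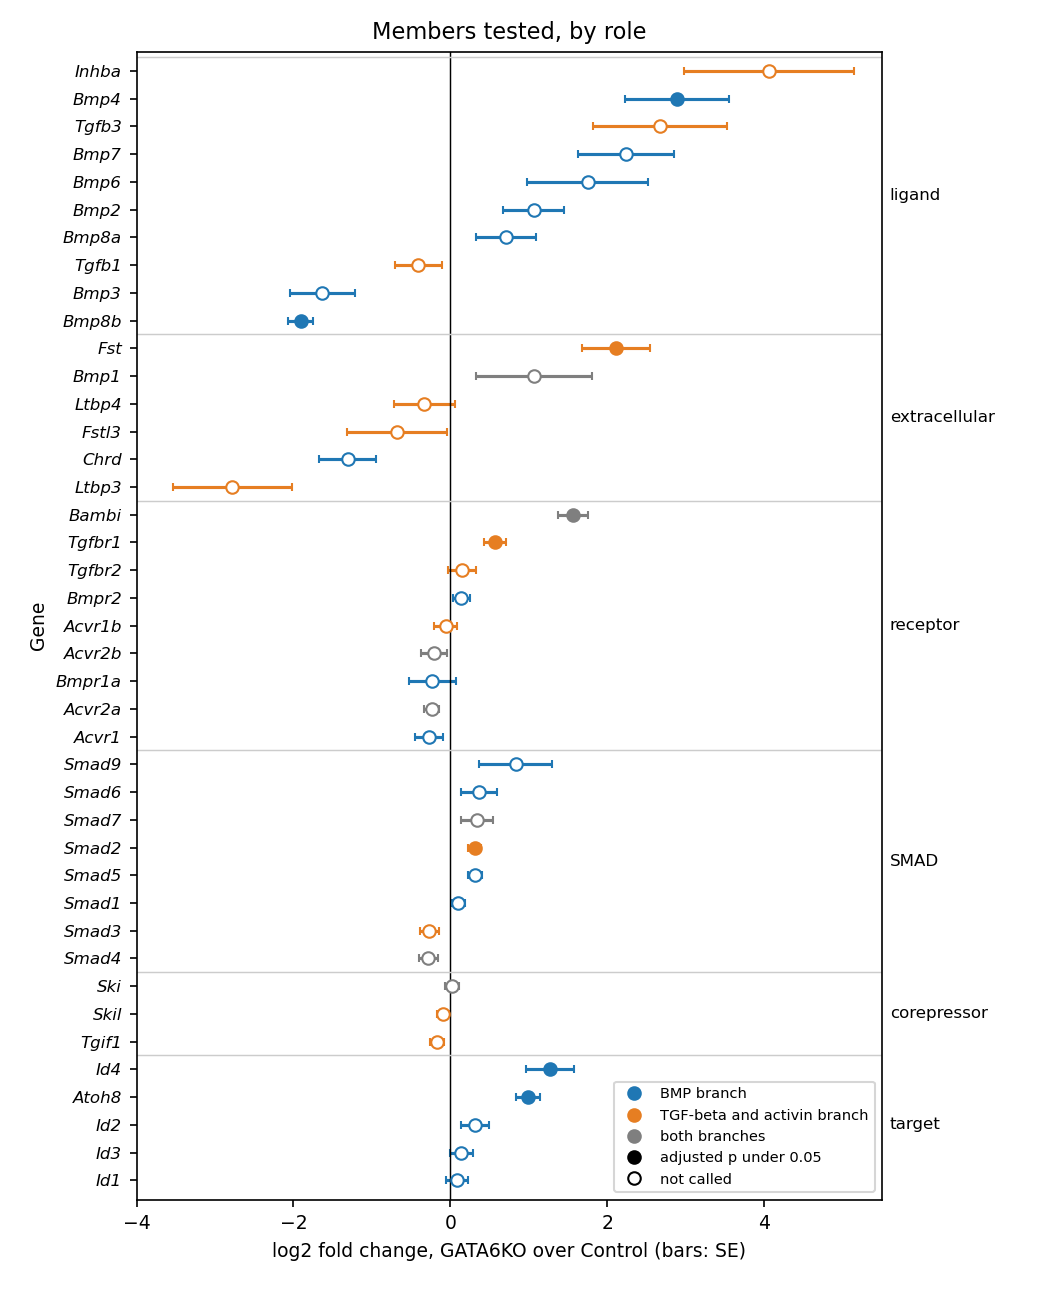
Log2 fold change of GATA6KO over Control with its SE for the 41 members tested, ordered by role and coloured by branch, with filled points for members called. Secreted members reach from -2.78 to 4.06, while receptors, SMADs and corepressors other than Bambi and Smad9 lie between -0.28 and 0.57.

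Beyond the members, 105 other genes of the pathway were taken from lists of targets, ligands, receptors and regulators. Of 15 genes listed as BMP targets, 9 were tested, and 3 rose and 1 fell, where 6.92% of all genes tested were called higher and 5.47% lower. With so few genes in each list, the counts here and below are descriptions. Msx2, a homeobox factor of ectodermal organs, measured 1.01, 0.971 and 1.07 CPM in Control and 29.3, 16.8 and 15 CPM in GATA6KO replicates 1 to 3 (log2 fold change 4.32, SE 0.32, edgeR adjusted p = 0.00153). It was called without each library in turn (adjusted p at most 0.0175). Dlx3, a homeobox factor of hair and epidermis, measured 17.9, 16.7 and 20.1 CPM in Control and 122, 60.6 and 53.3 CPM in GATA6KO, and rose by 2.11 on the log2 scale (adjusted p = 0.0113). The T-box factor Tbx3 rose by 0.68 (adjusted p = 0.0298), while Gata3 fell by 2.40 (adjusted p = 0.0365). Msx1, the relative of Msx2, was not called, at 32.8, 34.0 and 35.8 CPM in Control and 27.0, 20.3 and 12.8 CPM in GATA6KO (edgeR adjusted p = 0.0939, and 0.0189 without GATA6KO replicate 1, log2 fold change -0.77). Leaving out any Control library ended the calls of Dlx3, Tbx3 and Gata3 (highest adjusted p 0.0624, 0.14 and 0.143), and leaving out GATA6KO replicate 2 ended that of Gata3.

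Among genes listed as TGF-beta targets, of which 16 of 18 were tested, Fn1 and Thbs1 rose and Col4a2 fell. Fn1, which encodes fibronectin, measured 6.4, 9.71 and 7.37 CPM in Control and 68.8, 203 and 46.0 CPM in GATA6KO (log2 fold change 3.75, SE 0.59, adjusted p = 0.0124). Thbs1, a matrix protein that can activate latent TGF-beta, measured 25.1, 20.2 and 15.5 CPM in Control and 112, 421 and 57.1 CPM in GATA6KO (log2 fold change 3.28, SE 0.74, adjusted p = 0.0353). Both were highest in GATA6KO replicate 2, as were Inhba and Fst. The collagen Col4a2 fell by 0.55 (adjusted p = 0.0453). Leaving out Control replicate 1, 2 or 3 ended the calls of Fn1, Thbs1 and Col4a2 (highest adjusted p 0.0808, 0.161 and 0.167), and that of Col4a2 also ended without GATA6KO replicate 2 or 3.

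Pmepa1, a feedback inhibitor and common readout of TGF-beta, was farthest from the Control range in GATA6KO replicate 2. It measured 43.9, 45.3 and 44.9 CPM in Control and 34.4, 117 and 41.8 CPM in GATA6KO (log2 fold change 0.53, SE 0.44, edgeR adjusted p = 0.451). The sign turned without that library (log2 fold change -0.23, adjusted p = 0.211). Ccn2, a matricellular protein induced by TGF-beta and YAP, measured 108, 111 and 147 CPM in Control and 14, 108 and 15.9 CPM in GATA6KO (edgeR adjusted p = 0.259, log2 fold change -1.41), and without GATA6KO replicate 2 it passed (log2 fold change -3.03, adjusted p = 0.00155). In the knockout, replicate 2 was at the lower edge of Control and the others far below it. Pmepa1 and Ccn2 were singled out after their values had been seen.

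The remaining lists had few calls. Of 19 other ligands only Gdf15 and Gdf11 were expressed enough to test. Gdf15, a stress-induced ligand that signals through GFRAL rather than these receptors, fell by 3.59 on the log2 scale (adjusted p = 0.0109), and Gdf11 measured 2.25 to 2.67 CPM in Control and 3.38 to 6.95 CPM in GATA6KO (adjusted p = 0.0724, and 0.0201 without GATA6KO replicate 2). Of 3 tested coreceptors and receptors the guidance receptor Neo1, which binds BMP coreceptors of the RGM family, fell by 0.69 (SE 0.1, adjusted p = 0.00795). Of 9 tested extracellular regulators, Twsg1, a BMP-binding partner of chordin, rose by 0.60 (adjusted p = 0.0118). Of 19 intracellular regulators tested, the ubiquitin ligase Nedd4l, which removes activated SMAD2 and SMAD3, fell by 0.41 (adjusted p = 0.0377) and none rose. All 4 calls ended without Control replicate 1 or 3 (highest adjusted p 0.0584, 0.0536, 0.0924 and 0.162), and those of Neo1, Twsg1 and Nedd4l also without Control replicate 2.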

How the data were processed

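Each of the 6 libraries came from AKP organoid RNA after poly(A) selection, with a directional NEBNext kit, per the labels' protocols. The authors deposited 1 table of estimated counts per gene, not scaled between libraries. Salmon 1.3.0 and mm10 appear, with no role, in the submitters' processing notes. The sources used here do not give the annotation or whether counting used strand. Symbols, positions and exon lengths came from GENCODE M21 (54166 of 54418 identifiers matched), and promoters from RefSeq. No promoter window was read for the members on chromosome 18 (Bambi, Smad2, Smad4 and Smad7). Their absence from the motif shares thus does not show that RefSeq lacks their promoters.

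Genes passing edgeR's filterByExpr (minimum count 10, minimum total 15) were scaled by TMM and tested by the robust quasi-likelihood test, with Benjamini-Hochberg adjustment over 14714 genes. The SE was derived as the log2 fold change over the root of the F statistic. The software was edgeR 4.0.16, limma 3.58.1 and DESeq2 1.42.0 under R 4.3.3, and the test was tried on simulated data. Members and lists were chosen with earlier results of these data known. By rule, called members, and the receptors, SMADs and ID genes that the roles turn on, are given with values in each library. Many secreted members that were not called are given so too, beyond that rule. Short of that rule, Smad1, Smad6, Smad7, Smad9, Bmpr1b and Tgfbr3 are given as a mean, a bound or a count. From the other pathway lists, called genes of at least 1 CPM in a group are named. From the list of TGF-beta targets, 1 result is not reported here. Msx1, Gdf11, Ccn2 and Pmepa1 were named outside that rule, after their values had been seen. Alternatives were other scalings, filters and tests, a replicate block and each library left out. After the data were seen, limma-voom with a spread per group was added.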

Additional observations from a re-analysis of the deposited data

How the results depend on the processing

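Against 7 members higher and 1 lower, DESeq2 called 11 and 3, limma-voom 3 and 4, edgeR without a filter 4 and 1, and edgeR with a replicate block 4 and 1. Over all genes, the main fit called 1018 higher and 805 lower. There DESeq2 called 1694 and 1436, limma-voom 884 and 896, edgeR without a filter 1077 and 734, and with the block 480 and 347. For the BMP branch (3 and 1) DESeq2 called 6 and 2 and limma-voom 1 and 3. For the TGF-beta and activin branch (3 and 0) DESeq2 called 4 and 1, limma-voom 1 and 1, and edgeR 1 and 0 without a filter and 0 and 0 with the block, and the branch's median of -0.08 became 0.22 under DESeq2 and 0.25 without a filter. DESeq2 and the fit without a filter took in 30354 genes, and the other causes were not tested. With a library left out, the members called ranged from 1 to 10 higher and 1 to 7 lower, those of the BMP branch from 0 to 5 and 1 to 2, and those of the TGF-beta and activin branch from 0 to 4 and 0 to 4. The 7 lower came without GATA6KO replicate 1, where 2235 of 15136 genes were called higher and 2125 lower. The 10 higher came without GATA6KO replicate 3, where 1086 of 15168 genes were called higher and 748 lower. The branch medians ranged from 0.25 to 0.44 and from -0.14 to 0.07. Scaling by the library total moved the median of all genes from 0.02 to 0.09 and the share of calls that were higher from 55.8% to 65.7%, and turned Acvr1b from -0.06 to 0.01.

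Other members whose log2 fold change turned sign with a library left out were Bmp1 (-0.06 to 1.52), Ltbp4 (-0.65 to 0.03), Bmpr1a (-0.48 to 0.07), Tgfbr2 (-0.09 to 0.28), Acvr1b (-0.24 to 0.03), Ski (-0.02 to 0.07) and Id1 (-0.07 to 0.19), none of them called. Same-numbered libraries showed little shared deviation (correlations -0.0103, 0.0744 and -0.0921 over genes, beside -0.148 to 0.156 for unlike numbers). A small shared effect could be missed with 3 libraries a group, so whether the numbers pair the samples was not settled. The replicate block took the calls over all genes from 1823 to 480 higher and 347 lower. Members under about 10 counts a library could not be tested at this depth.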
